A study of Homo sapiens with 8 samples.

Results

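The expression of 10 genes that serve as readouts of the transcriptional coactivator YAP was examined in LM2 cells. They were CCN1 and CCN2, which code for secreted matricellular proteins, the nuclear ankyrin repeat protein gene ANKRD1, the angiomotin family gene AMOTL2, F3, which codes for tissue factor, the secreted regulator gene FJX1, the LIM protein gene AJUBA, the Hippo kinase gene LATS2, the receptor tyrosine kinase gene AXL and NT5E, which codes for the ecto-5′-nucleotidase CD73. The genes were taken as a named set, chosen with earlier results of these data known, and were found by symbol. All 10 of them were present among the 58688 genes counted in each sample. All 10 also had enough counts to be tested after Ponatinib and to pass the same filter in the shRNA samples.

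YAP and its paralog TAZ (gene WWTR1) do not bind DNA on their own. They enter the nucleus, join the TEAD factors at enhancers and promoters, often beside AP-1, and raise transcription of genes for growth, adhesion and the matrix. The Hippo kinases, among them LATS1 and LATS2, phosphorylate YAP and TAZ and keep them out of the nucleus, while cell spreading, actin tension and SRC family kinases favour their activity. Several targets act back on the pathway, since LATS2, AJUBA and the angiomotin proteins are themselves regulators of YAP.

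The LM2 line descends from the human triple-negative breast cancer line MDA-MB-231 and metastasizes to the lung, and it was grown in DMEM with serum. RNA was sequenced from 2 samples treated with DMSO, the solvent, and 2 samples treated with 1 µM Ponatinib, an inhibitor of ABL and of several other tyrosine kinases, for 6 h. Stable lines were made separately by 48 h of lentiviral infection and puromycin selection, and scrambled shRNA, ABL1 shRNA, ABL2 shRNA and ABL1/ABL2 shRNA (both targets) were sequenced as 1 sample each. The shRNA samples hold the cells that survived selection, 1 shRNA sequence was used per target, and the infection and selection are shared by the scrambled control and all 3 knockdowns. Nothing in the labels says whether the paired samples came from separate cultures, so their spread may be technical.

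Total counts ranged from 7568934 to 13010896 per sample, so that 3 counts correspond to between 0.231 and 0.396 CPM (counts scaled to the library size). The summed level of the mesenchymal markers VIM, CD44, FN1 and SPARC was 4218 to 7519 CPM in the 8 samples, while ESR1 and PGR together stayed at or below 0.885 CPM and the epithelial markers CDH1 and EPCAM together at or below 12.0 CPM. The DMSO and Ponatinib samples stood apart from the shRNA samples, with 68 genes at 100 or more counts in every sample of the first set and at 0 in every sample of the second. The other way round there were 0 such genes. Whether this came from the cells or from the counting was not tested, so levels were compared only within a set. Header cells of the scrambled shRNA and ABL1 shRNA tables carry swapped names. The targeted genes go with the sample labels, which were used, since ABL1 was at 72.9 CPM in the sample labelled ABL1 shRNA and at 190 CPM in scrambled shRNA, a ratio of 0.384 (95% counting interval 0.355 to 0.414). ABL2 was at 0.396 of scrambled shRNA in ABL2 shRNA, and in the double knockdown ABL1 was at 0.576 and ABL2 at 0.625, a smaller reduction of each target than in the single knockdowns.

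Promoter sequences are shown for some of the genes, in each case for a promoter that held a motif match. RefSeq promoters on GRCh38.p14, 250 bases before to 50 bases after a transcription start, were found for 9 of the 10 genes (12 promoters), and not for CCN1. They were searched on both strands for GGAATG, the core of the TEAD site, and for TGANTCA, an AP-1 site. CCN2 on chromosome 6 held 3 TEAD matches, whose first bases lie at −169, −104 and −95 from the start, and ANKRD1 on chromosome 10 held 2 TEAD matches at −220 and −128 with an AP-1 match at −195. F3 on chromosome 1 held 2 AP-1 matches at −223 and −210 and no TEAD match, while single TEAD matches stood at −69 in the second promoter of AMOTL2 and at −59 in the second promoter of AJUBA. The matches do not overlap one another. The 250 bases before each of these starts, read 5′ to 3′ on the strand of the gene with the motif matches in capitals, are:
CCN2, chr6:131951373-131951622, minus strand: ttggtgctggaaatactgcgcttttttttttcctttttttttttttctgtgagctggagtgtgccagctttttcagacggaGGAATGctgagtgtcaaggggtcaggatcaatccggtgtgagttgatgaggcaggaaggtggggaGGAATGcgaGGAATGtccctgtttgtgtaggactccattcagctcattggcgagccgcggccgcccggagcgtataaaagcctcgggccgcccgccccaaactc
ANKRD1, chr10:90921088-90921337, minus strand: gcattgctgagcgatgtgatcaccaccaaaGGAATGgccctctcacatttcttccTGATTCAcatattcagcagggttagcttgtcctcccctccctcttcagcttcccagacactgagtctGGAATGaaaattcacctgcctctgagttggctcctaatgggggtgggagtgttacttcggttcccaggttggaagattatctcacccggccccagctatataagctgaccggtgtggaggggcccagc
F3, chr1:94541760-94542009, minus strand: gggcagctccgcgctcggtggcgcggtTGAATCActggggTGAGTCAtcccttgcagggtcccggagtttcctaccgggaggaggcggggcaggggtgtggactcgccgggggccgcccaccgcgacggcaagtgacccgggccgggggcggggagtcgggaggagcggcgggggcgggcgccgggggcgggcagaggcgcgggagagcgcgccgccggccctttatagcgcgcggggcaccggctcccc
AMOTL2, second promoter, chr3:134374448-134374697, minus strand: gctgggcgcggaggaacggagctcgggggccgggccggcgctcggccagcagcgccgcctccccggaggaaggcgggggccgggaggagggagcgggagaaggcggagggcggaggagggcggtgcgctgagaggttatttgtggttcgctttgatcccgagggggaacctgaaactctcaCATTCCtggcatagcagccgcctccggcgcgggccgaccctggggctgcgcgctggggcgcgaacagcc
AJUBA, second promoter, chr14:22976843-22977092, minus strand: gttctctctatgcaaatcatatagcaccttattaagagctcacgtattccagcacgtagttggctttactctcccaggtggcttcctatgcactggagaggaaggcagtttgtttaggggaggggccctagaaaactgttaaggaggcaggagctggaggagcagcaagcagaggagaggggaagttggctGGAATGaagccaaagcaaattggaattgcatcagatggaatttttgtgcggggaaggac

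A TEAD match was present in 6 of the 12 promoters, against 14% of 35116 RefSeq promoters of the same length. The other single matches were in the second promoter of AXL, at −212, and 10 bases after the start of LATS2, while FJX1 and NT5E had none. The first promoters of AMOTL2, AJUBA and AXL held neither motif. AP-1 matches were present in 2 of the 12 promoters, against 7.71% of all. ANKRD1 was the only one of these genes with both motifs in its promoter, a pairing found in 1.45% of all promoters. A match is a description of the sequence and was not tied to binding here.

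After 6 h of Ponatinib, 9 of the 10 genes were lower and none was higher. Decreases of more than 2-fold were found for 6 genes, in the order CCN2 (7.59-fold), ANKRD1 (3.94-fold), FJX1 (3.36-fold), F3 (3.09-fold), CCN1 (3.02-fold) and AMOTL2 (2.46-fold). LATS2 fell by 1.56-fold, and the genes of the cell surface proteins NT5E and AXL fell by 1.31-fold and 1.22-fold. AJUBA did not pass the test. The quasi-likelihood test of edgeR covered 16031 genes, and of these 15.7% were called lower and 15% higher at a Benjamini-Hochberg adjusted p under 0.05. At the study's threshold, a fold over 2 with an unadjusted P under 0.05, 6 of the 10 genes were lower, against 2.29% of all genes tested, and 0 were higher, against 3.19%. The median log2 fold change was −1.45 over the 10 genes and −0.0047 over all genes. In bulk RNA, fewer cells with a transcript and less of it per cell cannot be told apart.

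The secreted CCN proteins, CYR61 (CCN1) and CTGF (CCN2), bind integrins and matrix and are among the most used readouts of YAP. CCN2 lies on chromosome 6 (GRCh38, chr6:131948176-131951372) and was at 462 and 431 CPM in the DMSO samples and at 63.5 and 53.4 CPM in the Ponatinib samples. The remaining level was 13.2% of DMSO, with no overlap between groups. Its log2 fold change of −2.92 (SE 0.081, 95% interval −3.10 to −2.75, edgeR adjusted p = 4.8e-12) ranked 9 from the bottom among the 16031 genes. CCN1 (chr1:85580761-85584589) was at 1276 and 1260 CPM in DMSO, the highest of the 10 genes also per kilobase of exon, and was at 432 and 408 CPM after Ponatinib. It fell by 1.59 on the log2 scale (SE 0.059, edgeR adjusted p = 5.8e-11), and its 95% interval of −1.72 to −1.47 did not reach that of CCN2. Exons of CCN2 share 278 bases with the antisense transcript LINC01013, and those of AXL share 67 bases with another, and whether the counting used strand is not given in the sources used here. On the same strand, exons of AMOTL2 share 187 bases with the pseudogene RPL39P5 and those of AJUBA share 50 bases with an unnamed protein-coding gene, so reads there could be split or left out.

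ANKRD1 (chr10:90912096-90921087) codes for a cofactor of transcription that is induced by stretch in muscle and by YAP in many cells. It was at 494 and 458 CPM in DMSO and at 128 and 112 CPM after Ponatinib, a log2 fold change of −1.98 (SE 0.074, edgeR adjusted p = 5.8e-11). Among the 9 genes with a promoter to search, CCN2 and ANKRD1, the 2 with more than 1 TEAD match, had the largest decreases, which is a description with no test. Promoters with 2 or more TEAD matches made up 1.37% of all. Among the other genes the order did not follow the matches. FJX1 and F3, with no TEAD match, fell more than AMOTL2, LATS2, AXL and AJUBA, with 1 match each. CCN1 was not searched.

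F3 (chr1:94529173-94541759) codes for tissue factor, the receptor that starts the extrinsic clotting pathway. It was at 263 and 239 CPM in DMSO and 80.9 and 81.7 CPM after Ponatinib, a log2 fold change of −1.63 (SE 0.070, edgeR adjusted p = 2.7e-10). FJX1 (chr11:35618460-35620865), the homolog of the fly gene four-jointed, was at 71.1 and 71.8 CPM and then at 22.7 and 19.4 CPM. It fell by 1.75 on the log2 scale (SE 0.092, edgeR adjusted p = 2.5e-09), from 709 or more counts in each DMSO sample to as few as 149 counts. The decrease of F3 therefore came without a TEAD match, and that of FJX1 without either motif, in the promoter windows searched.

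**Figure D1:**
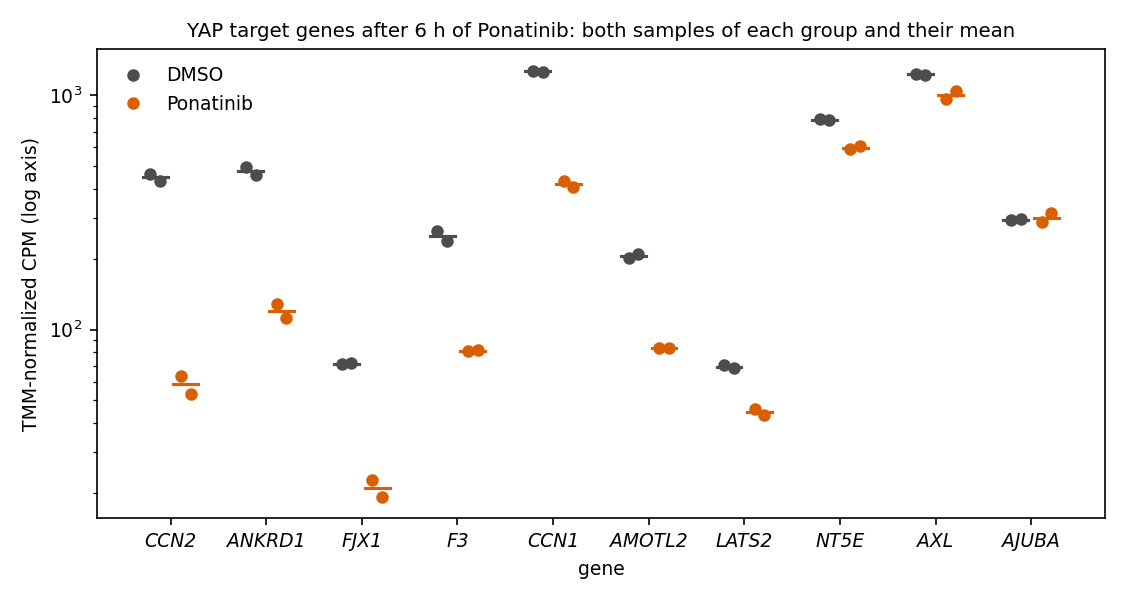
Level of each YAP target gene in TMM-normalized CPM (log axis) in the 2 DMSO samples (grey) and the 2 Ponatinib samples (orange), with a bar at the mean of each group. The samples of the groups do not overlap for 9 genes, from CCN2 at 462 and 431 against 63.5 and 53.4 CPM to AXL at 1234 and 1224 against 966 and 1044 CPM, and they overlap for AJUBA.

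The regulators of YAP among the targets responded unequally. AMOTL2 (chr3:134355347-134375479), a scaffold of cell junctions that holds YAP in the cytoplasm, was at 202 and 209 CPM in DMSO and 83.7 and 83.6 CPM after Ponatinib, a log2 fold change of −1.30 (SE 0.065, edgeR adjusted p = 1.5e-09). LATS2 (chr13:20973036-21061586), a kinase that phosphorylates YAP, was at 70.6 and 68.6 CPM and then at 45.7 and 43.1 CPM, a log2 fold change of −0.64 (SE 0.077, edgeR adjusted p = 1.5e-05). AJUBA (chr14:22971177-22982551), a LIM protein that restrains the LATS kinases, was at 293 and 297 CPM in DMSO, and the Ponatinib samples lay on either side of these, at 287 and 314 CPM. Its log2 fold change was 0.03 with a 95% interval of −0.11 to 0.16 (edgeR adjusted p = 0.80), an interval that keeps it within a change of 1.5-fold. The interval of AMOTL2, −1.43 to −1.16, did not overlap that of LATS2, −0.81 to −0.48, and neither overlapped that of AJUBA.

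The genes of the cell surface proteins showed small decreases at high levels. AXL (chr19:41219223-41261766), the receptor for GAS6, was at 1234 and 1224 CPM in DMSO and at 966 and 1044 CPM after Ponatinib (log2 fold change −0.29, SE 0.058, edgeR adjusted p = 0.0015). NT5E (chr6:85449584-85495791), whose enzyme turns AMP into adenosine outside the cell, was at 790 and 781 CPM and then at 590 and 607 CPM (log2 fold change −0.39, SE 0.056, edgeR adjusted p = 8.8e-05). Both changes were larger than the spread between samples, but 20.02% of all genes tested had a lower fold change than AXL and 14.0% a lower one than NT5E. Only the 6 genes that passed 2-fold lay outside the central 90% of all genes tested, which reached from −0.71 to 0.81. Both Ponatinib samples were below both DMSO samples for 9 of the 10 genes, against 32.8% of all genes tested.

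**Figure D2:**
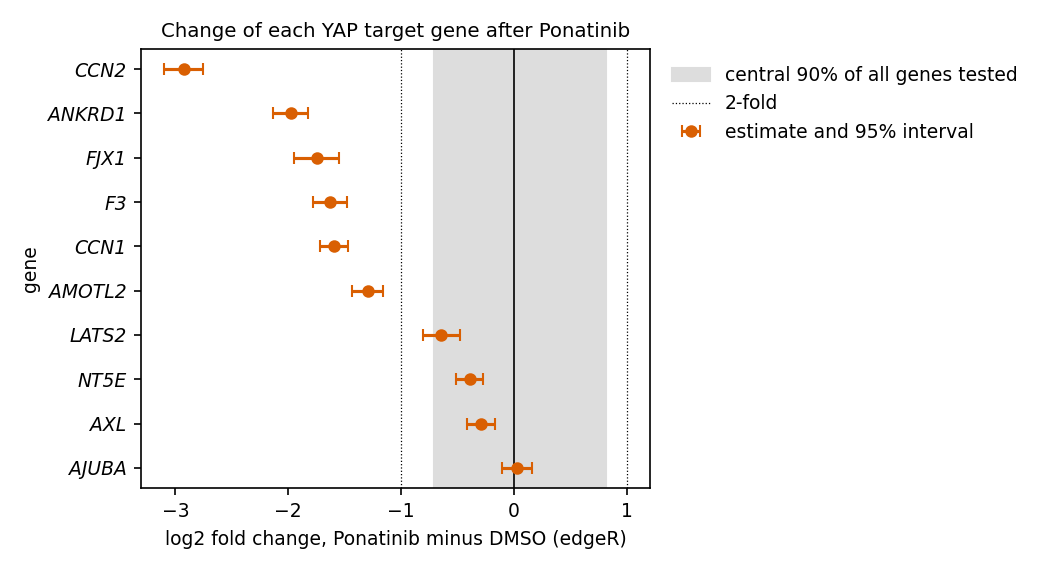
Log2 fold change after Ponatinib with its 95% interval from edgeR for each YAP target gene, beside the central 90% of all 16031 genes (grey band) and a 2-fold change in either direction (dotted lines). The intervals of the 6 genes from CCN2 to AMOTL2 lie wholly below a 2-fold decrease, those of LATS2, NT5E and AXL lie between there and 0, and that of AJUBA spans 0.

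Compared per kilobase of exon, the order of the genes changed with the drug. In DMSO 1 the level was highest for CCN1 at 345 CPM per kilobase, followed by ANKRD1 at 276, AXL at 240, CCN2 at 198 and NT5E at 174 CPM per kilobase, and lowest for LATS2 at 12.6. In Ponatinib 1 the order began with AXL at 188 and NT5E at 130, with CCN1 at 117 and ANKRD1 at 71.8, and CCN2 was in place 7 at 27.2 CPM per kilobase. The second samples gave the same order of all 10 genes in each group. CCN2 and F3 were close together after Ponatinib, at 27.2 and 22.8 against 28.0 and 28.3 CPM per kilobase, and the levels of FJX1 (9.44 and 8.06) and LATS2 (8.15 and 7.68) overlapped.

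The knockdowns, which were partial, were compared with the single scrambled shRNA sample to see whether the same genes differed there. The mRNA of ABL2 itself fell after Ponatinib (log2 fold change −1.02, edgeR adjusted p = 8.6e-08), and that of ABL1 rose (0.19, edgeR adjusted p = 0.029). Of the 10 genes, 8 were lower in ABL1 shRNA, 9 in ABL2 shRNA and 9 in ABL1/ABL2 shRNA, against 49.6%, 50.7% and 49.9% of 16172 genes, and NT5E was higher in all 3. CCN1 was the only one of the 10 genes below 1/2 of scrambled shRNA in every knockdown. More than 2-fold lower were 1 of 10 genes in ABL1 shRNA (4.25% of all genes), 4 of 10 in ABL2 shRNA (3.35%) and 2 of 10 in ABL1/ABL2 shRNA (3.46%). None was more than 2-fold higher in any of them, against 4.94%, 4.76% and 4.77% of all genes. A decrease of more than 1.5-fold was found for 5 genes in ABL1 shRNA (11.6%), 7 in ABL2 shRNA (8.49%) and 5 in ABL1/ABL2 shRNA (9.71%). Among the 10148 genes with a mean of at least 10 CPM, a level all 10 genes exceed, the shares more than 2-fold lower were 1.64%, 0.985% and 0.995%. Each group is 1 sample, so the ratios have no test of their own, and the intervals given cover counting error only.

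CCN1 was at 948 CPM in scrambled shRNA, 402 in ABL1 shRNA, 260 in ABL2 shRNA and 363 CPM in ABL1/ABL2 shRNA. These are 0.424 (95% interval 0.410 to 0.439), 0.274 (0.264 to 0.285) and 0.382 (0.369 to 0.396) of scrambled shRNA. ANKRD1 followed the same order, at 229 CPM in scrambled shRNA and then 132, 78.9 and 96.3 CPM, which are 0.577, 0.345 and 0.421 of it. CCN2, the gene that fell the most after Ponatinib, had a narrower range, with 129 CPM in scrambled shRNA and then 85.5, 75.0 and 78.3 CPM. Its ratios were 0.663 (0.612 to 0.717), 0.581 (0.534 to 0.631) and 0.607 (0.558 to 0.659).

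F3 was at 93.0 CPM in scrambled shRNA, 77.6 in ABL1 shRNA, 48.1 in ABL2 shRNA and 54.7 CPM in the double knockdown, or 0.834, 0.518 and 0.588 of scrambled shRNA. FJX1 had another order, with 49.4 CPM in scrambled shRNA and its lowest value, 26.5 CPM, in ABL1 shRNA, against 34.9 in ABL2 shRNA and 28.3 in the double knockdown. It was the only one of the 10 genes whose ratio of ABL1 shRNA to ABL2 shRNA, 0.758 (95% interval 0.656 to 0.875), lay wholly below 1.

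Of the regulators, AJUBA and AMOTL2 were lowest in ABL2 shRNA. AJUBA, which did not pass the test after Ponatinib, was at 231 CPM in scrambled shRNA, 190 in ABL1 shRNA, 88.4 in ABL2 shRNA and 162 CPM in ABL1/ABL2 shRNA, so that it was at 0.383 (95% interval 0.357 to 0.411) of scrambled shRNA in ABL2 shRNA. AMOTL2 was at 163 CPM and then 142, 72.2 and 124 CPM, with ratios of 0.871, 0.443 and 0.761. LATS2 varied less, from 65.9 CPM in scrambled shRNA to 43.6, 46.9 and 50.2 CPM in the knockdowns, and its values in ABL1 shRNA and ABL2 shRNA could not be told apart by counting error (ratio 0.931, 95% interval 0.828 to 1.05).

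AXL and NT5E differed from the rest in ABL1 shRNA, where neither was below scrambled shRNA. AXL was at 599 CPM in scrambled shRNA and at 615 CPM in ABL1 shRNA (ratio 1.03, 95% interval 0.993 to 1.06). It was at 333 CPM in ABL2 shRNA (ratio 0.555), a lower ratio than that of CCN2 there, and at 546 CPM in the double knockdown (ratio 0.911). NT5E was lowest in scrambled shRNA, at 825 CPM, and was at 1089, 1103 and 972 CPM in ABL1, ABL2 and ABL1/ABL2 shRNA, with ratios of 1.32, 1.34 and 1.18. NT5E was thus below its control after Ponatinib and above its control in all 3 knockdowns. Per kilobase of exon, NT5E was the highest of the 10 genes in each knockdown, at 240, 243 and 214 CPM per kilobase, while CCN1 was the highest in scrambled shRNA at 257 CPM per kilobase.

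**Figure D3:**
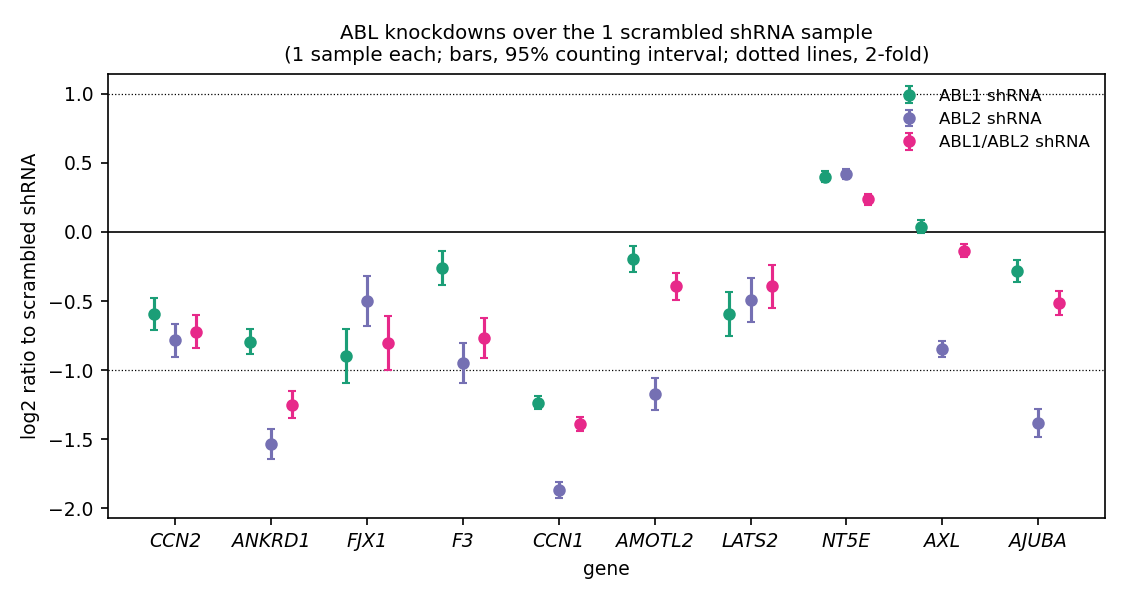
Log2 ratio of each ABL knockdown (1 sample each, coloured points) to the single scrambled shRNA sample for each YAP target gene, with 95% counting intervals and dotted lines at a 2-fold change. CCN1 lies below −1 in all 3 knockdowns, ABL2 shRNA is the lowest of the 3 for 7 genes, and NT5E lies above 0 in all of them.

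The 3 ratios share 1 control sample, whose own values can be seen in the order of the 4 samples. Scrambled shRNA was the highest of the 4 for 8 of the 10 genes, against 29.7% of all genes, and ABL2 shRNA the lowest for 7 of 10, against 26.3%. The ratio of ABL1 shRNA to ABL2 shRNA does not use the control, and its counting interval lay above 1 for 7 genes, below 1 for FJX1, and held 1 for LATS2 and NT5E. AJUBA had the highest of these ratios at 2.15 (95% interval 2.00 to 2.31), then AMOTL2 at 1.97, AXL at 1.85, ANKRD1 at 1.67, F3 at 1.61 and CCN1 at 1.55. The double knockdown lay between the single ones for 8 of the 10 genes, against 50.5% of all genes.

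Scrambled shRNA, the only shRNA sample with no ABL target, also stood apart from the knockdowns in a small part of the transcriptome. Of the 10148 genes with a mean of at least 10 CPM, 69 were more than 2-fold away from all 3 other samples in scrambled shRNA. This held for 1 gene in ABL1 shRNA, 13 in ABL2 shRNA and 0 in ABL1/ABL2 shRNA, which shares its targets with the single knockdowns. COL1A1, a fibroblast marker, was likewise highest in scrambled shRNA, at 407 CPM against 99.2, 227 and 139 CPM, while the fibroblast markers DCN and LUM had at most 7 counts in any sample. The endothelial marker PECAM1 was lowest there, at 20.5 CPM against 30.7, 39.7 and 32.4 CPM. The endothelial marker VWF did not share this order, at 1.06 CPM against 1.31, 0.557 and 0.906 CPM, and CDH5 had at most 3 counts in any sample. The leukocyte markers PTPRC, CD3E and LYZ together stayed at or below 1.48 CPM. Their part in the values of the YAP targets was not tested, and the line and its shRNA cannot be told apart with 1 sample each.

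The same genes were also set beside the factors that act on them. After Ponatinib, YAP1 was at 237 ± 3 CPM in DMSO and 227 ± 4 CPM in treated cells (SD, n = 2 each), and its log2 fold change of −0.06 did not pass (edgeR adjusted p = 0.45), and TEAD1, the TEAD gene with the most counts, had a log2 fold change of −0.02. WWTR1, which codes for TAZ, fell from 169 and 180 to 114 and 122 CPM (log2 fold change −0.57, edgeR adjusted p = 1.3e-05) and TEAD4 from 42.7 and 50.4 to 28.7 and 24.7 CPM (−0.79, edgeR adjusted p = 5.6e-05). TEAD2 and TEAD3, at 0.20 and −0.10, did not pass. These are mRNA levels and say nothing of the phosphorylation or place of YAP in the cell.

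In the shRNA samples WWTR1 was higher in the knockdowns, where most YAP targets were lower. It was at 122 CPM in scrambled shRNA and at 268, 297 and 268 CPM in ABL1, ABL2 and ABL1/ABL2 shRNA, with ratios of 2.20 (95% interval 2.07 to 2.34), 2.43 (2.29 to 2.59) and 2.20 (2.06 to 2.34). YAP1 was at 232 CPM in scrambled shRNA and at 266, 189 and 246 CPM, with its lowest value in ABL2 shRNA as for most targets. TEAD1 was at 499 CPM and then 390, 456 and 420 CPM. TEAD2 was at 34.8 CPM in scrambled shRNA and at 16.3, 31.7 and 23.8 CPM in ABL1, ABL2 and ABL1/ABL2 shRNA (ratios 0.467, 0.909 and 0.683), with ratios for TEAD3 and TEAD4 between 0.552 and 1.38 over the knockdowns.

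Of the Hippo core and TEAD genes, 16 of a list of 17 could be tested after Ponatinib, and 5 were lower and 0 higher, against 15.7% and 15% of all genes. Besides WWTR1 and TEAD4 these were NF2, the tumour suppressor merlin, at −1.06, AMOTL1, an angiomotin paralog of AMOTL2, at −0.95, and WWC1, the scaffold KIBRA, at −0.27 on the log2 scale (edgeR adjusted p = 0.0498 for the last). The list had a median log2 fold change of −0.10. In ABL1, ABL2 and ABL1/ABL2 shRNA 2, 2 and 1 of its 17 genes were more than 2-fold lower, against 4.25%, 3.35% and 3.46% of all genes, and 1 in each, WWTR1, was more than 2-fold higher, against 4.94%, 4.76% and 4.77%. AMOT, the gene not tested after Ponatinib, was among the lower genes in ABL2 shRNA and the only one in ABL1/ABL2 shRNA. It was near the floor, with 6 and 5 counts there against 15 in scrambled shRNA.

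A published signature of YAP and TAZ targets holds 9 of the 10 genes, all but AJUBA, and 13 others. Of these 13, 4 were lower after Ponatinib (ASAP1 at −0.64, CRIM1 at −0.51, DOCK5 at −0.34 and PTPN14 at −0.29), 2 were higher (GADD45A at 0.56 and IGFBP3 at 0.29) and 7 did not pass, where 15.7% of all genes were lower and 15% higher. None of the 13 passed the study's threshold, against 6 of the 10 genes described here. The medians were −0.15 for the 13 genes and −1.45 for the 10. Both lists were chosen with earlier results of these data known, so this contrast is a description and not a test. In the knockdowns the lists were closer together, with medians over the 13 genes of −0.59, −0.70 and −0.67 in ABL1, ABL2 and ABL1/ABL2 shRNA, against −0.44, −0.90 and −0.62 for the 10. Scrambled shRNA was the highest of the 4 samples for 10 of the 13, against 29.7% of all genes. ABL2 shRNA was the lowest for 4 of the 13, near the 26.3% of all genes, where it was the lowest for 7 of the 10.

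TGFB2, the ligand TGF-β2, was the only one of the 13 more than 2-fold below scrambled shRNA in every knockdown. It was at 205 CPM there and at 77.4, 76.2 and 64.9 CPM in ABL1, ABL2 and ABL1/ABL2 shRNA, ratios of 0.377, 0.371 and 0.316. After Ponatinib its log2 fold change was −0.02 (95% interval −0.17 to 0.13, edgeR adjusted p = 0.86). CCN1, with ratios of 0.424, 0.274 and 0.382, shared the first of these patterns and not the second.

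**Figure D4:**
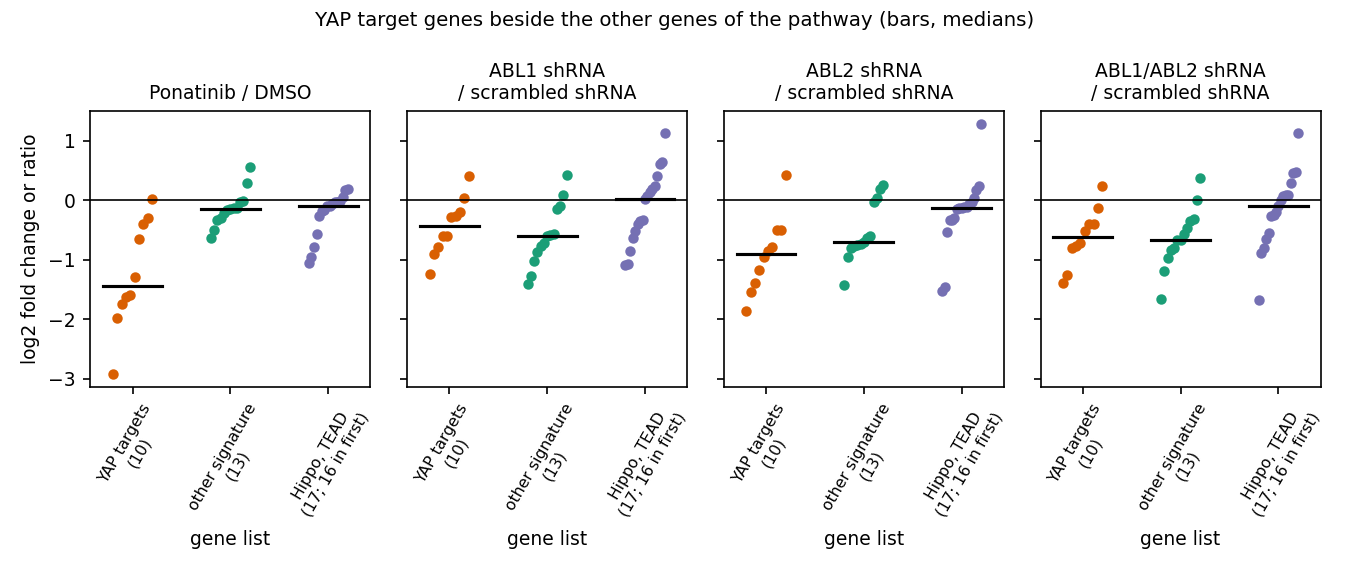
Log2 fold change after Ponatinib and log2 ratio to scrambled shRNA for each gene (points) of 3 lists, with a bar at the median of the list. The YAP targets reach −2.92 with a median of −1.45 after Ponatinib, where the other signature genes have a median of −0.15, while in the ABL2 shRNA sample the medians are −0.90 and −0.70. The lists were chosen with earlier results of these data known.

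The genes whose pattern was most like that of CCN1 and CCN2 were sought over the 8 samples, as the correlation of log2 CPM after subtracting the mean of each set of 4, among 9568 genes with a mean of at least 10 CPM in each set. For CCN1 these were COL8A1, a short-chain collagen gene (r = 0.996), SLC39A1, a zinc transporter gene (r = 0.993), and FAM3A (r = 0.991). For CCN2 they were GTPBP4 (r = 0.999), CSTF3 (r = 0.998) and NSUN2 (r = 0.997), genes of ribosome assembly, mRNA 3′ end formation and RNA methylation. Correlations over 0.9 were found with 181 other genes for CCN1 (1.89%) and 405 for CCN2 (4.24%), so a high value is not rare in samples that fall into few groups. Within the set, the correlation with CCN1 was 0.9751 for ANKRD1, 0.943 for LATS2, 0.932 for F3, 0.925 for AMOTL2, 0.874 for FJX1 and 0.873 for CCN2, and it was lower for AXL (0.684), AJUBA (0.526) and NT5E (0.186). The 8 points share libraries and groups, so these values are given as a description.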

How the data were processed

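Raw read counts per gene for 8 samples of the LM2 cell line were analysed. The authors prepared libraries with the NEBNext Ultra kit, mapped the reads to hg38 with TopHat and deposited the counts per Ensembl gene without normalization, 1 file per sample. HTSeq 0.6.0 is named in the submitters' processing notes, and its strand setting is not given in the sources used here. Summary rows of the counter, such as reads on no feature (9.48% to 9.90% in the shRNA files), were left out. Gene symbols and positions are from GENCODE on GRCh38 and matched 54836 of 58688 identifiers.

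Ponatinib was tested against DMSO in its 4 samples by the quasi-likelihood test of edgeR 4.0.16 (R 4.3.3, TMM factors, filterByExpr, prior count 0.125) and Benjamini-Hochberg adjustment over all genes tested. Standard errors and 95% intervals are from the same fit. Knockdowns have 1 sample each and were given as ratios of TMM-normalized counts, scaled over the 4 shRNA samples, with exact conditional (Clopper-Pearson) intervals. Named genes are the 10 targets, ABL1, ABL2, YAP1, WWTR1, TEAD1 to TEAD4, signature genes past the study's threshold or more than 2-fold from scrambled shRNA in all knockdowns, and the 3 genes most correlated with CCN1 and with CCN2. Other Hippo and signature genes are named because they passed the test and were chosen after their values were seen. The targets and lists were chosen with earlier results of these data known. Alternatives were DESeq2 1.42.0, its size factors, library size only, other filters, a prior count of 2, a fit of all 8 samples, a replicate block, a fold of 1.5 and leaving out each drug sample. Only the main edgeR fit of Ponatinib against DMSO was also run on simulated counts, and the alternatives and the knockdown ratios were not.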

Additional observations from a re-analysis of the deposited data

How the results depend on the processing

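After Ponatinib, 9 genes lower, 0 higher and 6 past the study's threshold were found under every alternative run. Leaving out 1 sample at a time, these counts ranged from 9 to 9, 0 to 0 and 6 to 6. Samples with the same repeat number did not deviate together (r = −0.020 across 9421 genes). With 2 samples in each group this cannot settle whether the numbers pair them. A fit with the replicate block gave 9 lower, 0 higher and 6 past the threshold. AJUBA had a log2 fold change of −0.041 without Ponatinib replicate 2 (edgeR adjusted p = 0.588), within a range of −0.041 to 0.099 when leaving out each sample, so its sign is not settled, and the cause was not tested. The number of all genes called lower went from 2511 to 1481 with DESeq2's Wald test, and that called higher from 2406 to 1328. Leaving out each sample, 1445 to 2935 genes were lower, the lowest number without DMSO replicate 1 and with 1682 without DMSO replicate 2.

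At a fold of 1.5, the genes below scrambled shRNA numbered 5, 7 and 5 in ABL1, ABL2 and ABL1/ABL2 shRNA. A fit of all 8 samples, which takes its spread from the drug experiment and so assumes that a lone shRNA sample varies like those pairs, called 6, 9 and 8 of the 10 genes lower and 1, 1 and 0 higher (edgeR adjusted p under 0.05), against 11.4%, 7.68% and 9.42% of all genes lower and 10.6%, 7.89% and 8.43% higher. With library size only, the log2 ratio of NT5E was 0.46 in ABL2 shRNA and 0.28 in the double knockdown. The knockdown values rest on 1 scrambled shRNA sample and have no replicate check.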
